A study of Homo sapiens with 12 samples.

Results

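Mucins are the 9 genes considered here, namely MUC1, MUC4, MUC13, MUC15, MUC16 and MUC20, which encode transmembrane mucins, and MUC2, MUC5AC and MUC5B, which encode gel-forming mucins. They were taken by name from 20046 protein-coding genes of GENCODE v44, with earlier results of these data known. Chromatin accessibility was read in the body of each gene and in 20 kb on each side, here called its window. The deposited table of DU-145 cells placed 331 of its 709366 bins of 100 bp in these windows, and they formed 31 of 79177 accessible regions, each an unbroken run of bins. The table of BT-549 cells placed 276 of 472994 bins there, in 21 of 46298 regions. Stretches covered by bins of both tables gave 13 shared regions of 32671. In the text the regions of a line are numbered in table order (R1, R2 and so on), and the shared regions are S1 to S13.

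Accessibility was measured by ATAC-seq, in which the Tn5 transposase cuts open DNA, in DU-145 cells, a line from castration-resistant prostate cancer (CRPC), and in BT-549 cells, a line from triple-negative breast cancer (TNBC). All 12 libraries came from cells carrying a tetracycline-inducible short hairpin RNA against MUC1 (tet-MUC1shRNA). The control cells received 0.1% DMSO as vehicle, and their hairpin was not induced, while the treated cells received doxycycline (DOX) for 7 days. Each of the 4 groups held 3 replicates, described in the methods as biologically independent. No cells with a control hairpin were analysed here, so an effect of DOX itself and one of the hairpin cannot be told apart, and each line is 1 cell model. MUC1 is the target of the hairpin, but the hairpin acts on the transcript, and accessibility of the MUC1 gene is therefore no check of the knockdown.

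Mucins are large glycoproteins of epithelial surfaces whose repeats, rich in serine and threonine, carry dense O-linked glycans. The transmembrane mucins stand on the apical membrane, where their extracellular part forms a barrier and their cytoplasmic part can pass signals. The gel-forming mucins are secreted by goblet cells and glands and assemble into mucus. MUC1 is known for its overexpression and loss of polarity in carcinomas, and MUC4 and MUC16 are also carcinoma antigens. MUC2 is the mucin of intestinal mucus, and MUC5AC and MUC5B are those of airway mucus. MUC2, MUC5AC and MUC5B lie side by side on chromosome 11, and MUC4 and MUC20 are neighbors on chromosome 3.

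The deposited bin values were expressed as CPM, the coverage of a region per 1000000 of the library's summed coverage. In units of 1000000, this sum ranged over 12.4 to 24.0 (vehicle) and 16.3 to 25.2 (DOX) among DU-145 libraries. Among BT-549 libraries it ranged over 9.14 to 13.6 (vehicle) and 2.50 to 3.27 (DOX). The BT-549 DOX libraries were thus shallower than every other library, and the part of this depth in the BT-549 results was not tested. Changes were tested over all regions of a line with edgeR's quasi-likelihood test, and a region was called at a Benjamini-Hochberg adjusted p under 0.05. The median region changed by 0.24 on the log2 scale in DU-145 and by −0.10 in BT-549 cells, and by 0.048 and 0.0016 with TMM factors in place of library sums. Promoter bins were present for 8 of 8 epithelial marker genes in DU-145 cells and for 2 of 8 (ESRP1 and CLDN4) in BT-549 cells, while 4 of 6 and 6 of 6 mesenchymal markers and 0 of 4 leukocyte markers in either line had them.

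The sequences that carry the main results are given before the values, 300 bases each, 5′ to 3′. The MUC1 promoter is that of RefSeq (GRCh38.p14), on the minus strand at chr1:155192866-155193165, from 250 bases before to 50 after the start. The others are the plus strand of GRCh38 around the highest bin of a region. R6 of DU-145 (chr1:155193501-155193800) lies just upstream of that promoter, and R16 (chr11:26572801-26573100) and R17 (chr11:26579301-26579600) lie upstream of MUC15 and moved in opposite directions. R30 (chr3:195815201-195815500) and R12 (chr11:1154001-1154300) lie upstream of MUC4 and MUC5AC. BT-549 R20 (chr3:195711601-195711900) lies in an exon of MUC20-OT1, the transcript upstream of MUC20. Capitals mark 4 motifs searched on both strands, namely the AP-1 site TGACTCA, the STAT site TTCNNNGAA, the GC box GGGCGG and the TATA box TATAAA, where N is any base and overlapping matches share capitals. On the other strand AP-1 reads TGAGTCA and the GC box CCGCCC.
MUC1 promoter: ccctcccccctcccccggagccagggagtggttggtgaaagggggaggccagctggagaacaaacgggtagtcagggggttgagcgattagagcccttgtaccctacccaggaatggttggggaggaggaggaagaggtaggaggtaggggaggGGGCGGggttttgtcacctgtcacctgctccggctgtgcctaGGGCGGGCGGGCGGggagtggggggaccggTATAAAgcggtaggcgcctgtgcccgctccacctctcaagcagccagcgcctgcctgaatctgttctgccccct
DU-145 R6: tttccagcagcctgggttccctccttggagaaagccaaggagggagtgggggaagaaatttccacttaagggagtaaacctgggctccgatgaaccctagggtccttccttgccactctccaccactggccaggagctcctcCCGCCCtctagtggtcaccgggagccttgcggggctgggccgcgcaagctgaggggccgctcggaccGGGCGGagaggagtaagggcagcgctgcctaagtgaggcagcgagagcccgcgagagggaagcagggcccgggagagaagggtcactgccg
DU-145 R16: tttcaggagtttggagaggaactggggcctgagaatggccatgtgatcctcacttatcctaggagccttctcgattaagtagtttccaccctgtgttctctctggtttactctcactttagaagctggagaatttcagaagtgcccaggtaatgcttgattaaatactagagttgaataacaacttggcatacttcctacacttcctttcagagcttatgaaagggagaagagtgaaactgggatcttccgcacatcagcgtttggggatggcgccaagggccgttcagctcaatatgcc
DU-145 R17: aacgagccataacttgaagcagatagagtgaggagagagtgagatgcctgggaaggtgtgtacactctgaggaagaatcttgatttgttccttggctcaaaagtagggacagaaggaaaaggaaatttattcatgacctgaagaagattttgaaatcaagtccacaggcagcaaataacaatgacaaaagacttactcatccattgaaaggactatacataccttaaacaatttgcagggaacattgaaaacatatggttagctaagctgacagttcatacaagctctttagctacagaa
DU-145 R30: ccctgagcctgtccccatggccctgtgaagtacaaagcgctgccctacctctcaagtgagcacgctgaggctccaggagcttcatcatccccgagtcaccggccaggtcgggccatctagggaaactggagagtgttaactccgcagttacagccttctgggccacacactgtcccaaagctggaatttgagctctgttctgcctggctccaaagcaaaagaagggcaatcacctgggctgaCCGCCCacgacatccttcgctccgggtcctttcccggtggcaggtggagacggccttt
DU-145 R12: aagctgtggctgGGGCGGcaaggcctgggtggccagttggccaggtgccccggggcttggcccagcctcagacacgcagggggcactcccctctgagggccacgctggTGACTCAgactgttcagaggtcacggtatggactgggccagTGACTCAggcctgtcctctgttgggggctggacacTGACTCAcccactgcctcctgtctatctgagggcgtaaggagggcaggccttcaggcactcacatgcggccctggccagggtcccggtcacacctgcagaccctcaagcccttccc
BT-549 R20: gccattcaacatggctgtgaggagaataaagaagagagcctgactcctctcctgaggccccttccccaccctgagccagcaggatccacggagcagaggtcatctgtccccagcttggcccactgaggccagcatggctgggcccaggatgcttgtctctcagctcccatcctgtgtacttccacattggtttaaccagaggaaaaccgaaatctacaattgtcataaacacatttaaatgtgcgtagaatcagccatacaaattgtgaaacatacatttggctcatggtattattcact

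The MUC1 promoter held 4 GC boxes and 1 TATA box, and R6 held 2 GC boxes. Of 35116 RefSeq promoters, 45.0% held a GC box, 11.5% a TATA box, 7.66% a STAT site and 4.95% an AP-1 site. R12 held 3 AP-1 sites and 1 GC box, R30 held 1 GC box, and R16, R17 and BT-549 R20 held none of these letters. In windows of the same length around the highest bin, an AP-1 site was present in 5 of the 31 DU-145 mucin regions and in 30.0% of all DU-145 regions. It was present in 4 of the 7 mucin regions called higher with DOX and in 0 of the 3 called lower, and over all regions in 44.7% of those called higher and 17.5% of those called lower. In BT-549 cells 1 of 21 mucin regions (R11, upstream of MUC5AC) held it, against 17.2% of all regions. RefSeq promoters of MUC15, MUC20, MUC5AC and MUC5B were not used here.

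MUC1 was described first, since it is the hairpin's target and had the most regions in both lines, 7 in DU-145 and 10 in BT-549 cells. Its gene is dense with neighbors, and among its DU-145 regions R2 lay at the start of KRTCAP2 and R7 at that of THBS3. The region over the MUC1 start, R6 (chr1:155191901-155195500 in DU-145, 3600 bp), was the mucin region with the most bins in that line. In DU-145 cells R6 held 89.0, 96.9 and 87.3 CPM in vehicle replicates 1 to 3 and 76.9, 84.3 and 81.5 CPM in DOX replicates 1 to 3. Every DOX library was below every vehicle library, but the difference (log2 −0.17, SE 0.076, adjusted p = 0.0534) missed the threshold. The median DU-145 region rose by 0.24 under the same scaling, and relative to it R6 stood at −0.41. In BT-549 cells R6 (chr1:155192001-155195700) held 149, 173 and 146 CPM with vehicle and 161, 172 and 141 CPM with DOX. These groups overlapped, with a log2 change of 0.02 (95% interval −0.17 to 0.21, adjusted p = 0.907). Relative to the median BT-549 region, R6 stood at 0.12.

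**Figure D1:**
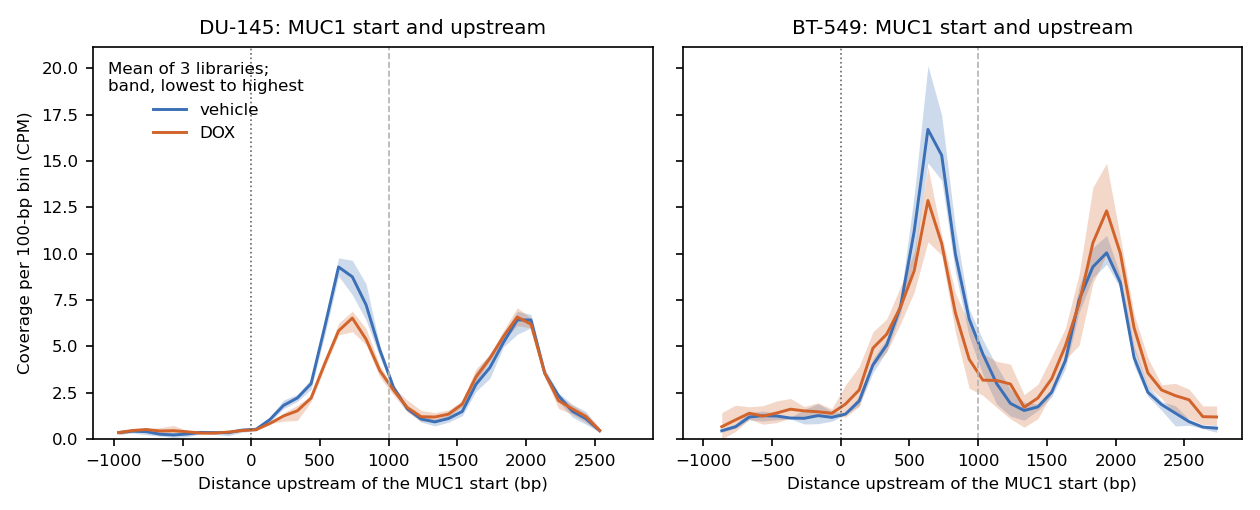
Coverage of the 100-bp bins of the MUC1 region R6 (y axis, CPM per bin) against the distance upstream of the MUC1 start (x axis, bp) in DU-145 (left) and BT-549 cells (right), with vehicle in blue and DOX in orange. Lines are means of 3 libraries, bands run from the lowest to the highest library, the dotted line marks the start and the dashed line 1 kb, and the summit near the start is lower with DOX in both lines while the one further upstream is not.

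The profile of coverage by bin showed that R6 held a pair of summits, and its parts did not move alike. Within 1 kb of the MUC1 start, the 20 bins of DU-145 cells summed to 49.4, 49.7 and 45.6 CPM with vehicle and to 34.1, 38.2 and 35.6 CPM with DOX. All DOX libraries were lower, the means were 48.2 ± 2.29 and 36.0 ± 2.09 CPM (SD, n = 3 each), and the exact two-sided permutation p of 0.1 is the smallest that 3 against 3 libraries allow. By the fit over all bins, 8 of these 20 bins fell at an adjusted p under 0.05, against 11.8% of all DU-145 bins, and their median change was −0.15. Bins at other promoters were not counted apart. Of all DU-145 promoters, each tested as a sum of bins, 40.4% were called lower. The bin highest with vehicle (chr1:155193501-155193600, 635 bp upstream of the start) changed by log2 −0.66 (adjusted p = 1.76e-06). It lies outside the RefSeq promoter and within the R6 sequence printed above.

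More than 1 kb upstream, the remaining 16 bins of DU-145 cells summed to 39.5, 47.2 and 41.7 CPM with vehicle and to 42.8, 46.1 and 45.9 CPM with DOX. These groups overlapped (exact permutation p = 0.6), and 0 of the 16 bins passed the threshold, which 22.8% of all DU-145 bins passed as higher. In BT-549 cells the 19 bins within 1 kb summed to 83.7, 97.5 and 85.1 CPM with vehicle and to 74.4, 76.3 and 81.9 CPM with DOX, with no overlap. Of these bins 3 fell, although the median bin changed by 0.21, and over all BT-549 bins 5.91% were called lower and 5.03% higher. The 18 bins further upstream held 65.0, 75.3 and 61.2 CPM with vehicle and 86.8, 96.2 and 59.5 CPM with DOX, so that DOX replicate 3 lay below all vehicle libraries and the other 2 above. The BT-549 bin highest with vehicle, at the same place as in DU-145 cells, changed by −0.38 (adjusted p = 0.0900).

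Summed over 1 kb on each side of the canonical start, the MUC1 promoter of DU-145 cells held 52.2, 52.6 and 48.2 CPM with vehicle and 36.4, 41.0 and 38.3 CPM with DOX. It fell by 0.40 on the log2 scale (SE 0.092, adjusted p = 0.00032), a direction shared with 40.4% of the 13838 DU-145 promoters tested, while 6.64% rose. The median DU-145 promoter changed by −0.19, and with TMM factors by 0.0086, when higher calls made up 50.6% of all calls in place of 14.1%. Under TMM factors the MUC1 promoter changed by −0.21, under DESeq2 by −0.21 and under loess offsets by −0.17, and none of these passed the threshold. In BT-549 cells the promoter held 88.6, 103 and 88.6 CPM with vehicle and 77.0, 80.9 and 84.2 CPM with DOX. All DOX libraries were again lower, but the change of −0.21 (SE 0.11, adjusted p = 0.177) was not called, with 18.3% of 13281 BT-549 promoters called higher and 5.95% lower. There the median promoter rose by 0.10, and with TMM factors (−0.31), DESeq2 (−0.31) and loess offsets (−0.34) the MUC1 promoter was called lower. Higher calls made up 75.5% of BT-549 promoter calls with library sums and 53.9% with TMM factors.

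The DOX effect on the MUC1 promoter did not differ between the lines beyond its error. The effect in DU-145 minus that in BT-549 cells was −0.02 (95% interval −0.30 to 0.25, adjusted p = 0.925), while 29.9% of the promoters shared by both tables differed. The peak lists called in each library held a MUC1 promoter peak in 3 of 3 libraries of all 4 groups. In DU-145 cells its fold enrichment over local background was 70.7 to 102 with vehicle and 55.9 to 73.7 with DOX, and in BT-549 cells it was 65.8 to 108 with vehicle and 19.6 to 27.7 with DOX. The last range belongs to the shallowest libraries, which also had the fewest peaks, 30450 to 39837 against 63271 to 95487 in the other groups.

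Other regions of the MUC1 window were called in 1 line each, which is no test of a difference between the lines. DU-145 R1 (chr1:155167201-155168700), nearest to KRTCAP2, held 23.0, 21.1 and 21.4 CPM with vehicle and 11.7, 17.9 and 17.4 CPM with DOX. It was lower in every DOX library (log2 −0.47, SE 0.135, adjusted p = 0.00354), but not after GC correction (−0.14), with or without the replicate block. In BT-549 cells R5, in a coding exon of MUC1 (chr1:155187101-155188500), held 13.5, 15.0 and 10.5 CPM with vehicle and 9.72, 6.35 and 5.44 CPM with DOX. It fell by 0.87 (SE 0.284, adjusted p = 0.0201) without overlap of the groups, and the call was lost without vehicle replicate 1 or 2 or DOX replicate 3, and with DESeq2, loess offsets or the highest bin. BT-549 R9, in a THBS3 intron, held 12.2, 16.1 and 14.9 CPM with vehicle and 9.14, 9.29 and 8.77 CPM with DOX (log2 −0.66, adjusted p = 0.0461). That call was lost whichever library was left out, with adjusted p up to 0.170, and kept in 3 of the 10 other settings. The DOX effect in DU-145 minus that in BT-549 cells was −0.37 at S1, within DU-145 R1 (interaction adjusted p = 0.270). At S5, within BT-549 R5, the difference was 0.16 (interaction adjusted p = 0.860).

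Over all 31 DU-145 mucin regions, 7 were called higher and 3 lower with DOX and 21 were not called. Over all 79177 regions 37.1% were called higher and 17.4% lower, and higher calls made up 68.0% of calls with library sums and 54.1% with TMM factors. The median change was −0.010 for the mucin regions, against 0.24 for all. In 15 of the 31 regions the DOX and vehicle libraries did not overlap, against 59.5% of all regions. With GC correction 16 mucin regions were called higher, and with TMM factors 9 were called lower. The plot of changes by region shows that the 10 calls lay in the windows of MUC1, MUC4, MUC15, MUC16, MUC20, MUC2 and MUC5AC, and that MUC13 and MUC5B had none. R16, R17, R19, R24, R27 and R30 kept their calls under all 10 other settings and with each of the 6 libraries left out. Over those settings R16 ranged from −3.78 to −0.93 and R17 from 1.12 to 2.83. No filter and filterByExpr kept the same 79177 regions as the main fit in DU-145 cells, so these settings could not change a call. Relative to the median region, R17 rose by 2.40, R30 by 1.04, R27 by 0.76 and R24 by 0.60, and R16 and R19 stood at −2.59 and −1.97.

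**Figure D2:**
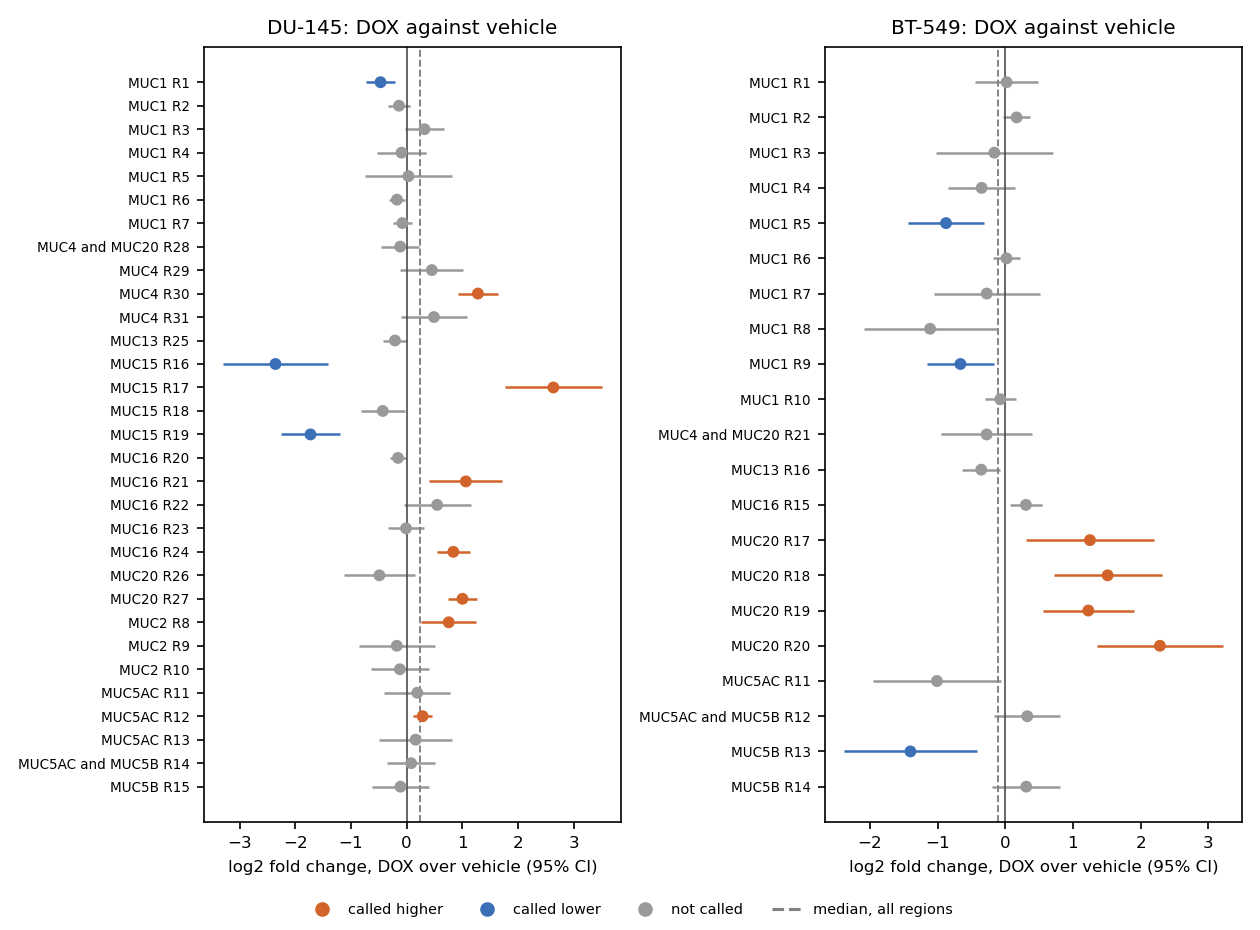
log2 fold change of DOX over vehicle (x axis, library-sum scaling, bars are 95% intervals) for every mucin region (y axis, named by the mucin whose window holds it) in DU-145 (left, 31 regions) and BT-549 cells (right, 21 regions). Orange marks regions called higher, blue called lower and gray not called, and the dashed line is the median of all regions of the line, 0.24 and −0.10, with the MUC15 and MUC20 regions furthest from it.

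MUC4, a membrane mucin that binds ERBB2, had 4 regions in its DU-145 window. R30 (chr3:195814901-195815900), at −3377 bp from a MUC4 start, held 5.03, 3.8 and 4.31 CPM with vehicle and 10.5, 9.23 and 11.8 CPM with DOX. Every DOX library was above every vehicle library, and the region rose by 1.28 on the log2 scale (SE 0.182, adjusted p = 2.65e-07), within 0.96 to 1.62 over the other settings. R29 and R31 changed by 0.45 and 0.49 and R28, which also lies in the MUC20 window, by −0.11, with adjusted p of 0.172 to 0.601. In BT-549 cells the MUC4 window held 1 region, R21 in a MUC4 intron, with 4.91, 7.05 and 6.12 CPM with vehicle and 5.68, 5.91 and 3.24 CPM with DOX (log2 −0.27, adjusted p = 0.588). Neither line had a bin within 1 kb of the canonical MUC4 start.

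MUC13, an epithelial membrane mucin with EGF-like domains, had no accessible bin at its own start in either line. The only region of its window, R25 in DU-145 and R16 in BT-549 cells, lay at the start of ITGB5, an integrin gene. It held 30.9, 35.1 and 34.2 CPM with vehicle and 25.1, 33.0 and 28.4 CPM with DOX in DU-145 cells (log2 −0.21, adjusted p = 0.0975). In BT-549 cells it held 49.7, 59.2 and 65.0 CPM with vehicle and 51.8, 41.0 and 42.9 CPM with DOX (log2 −0.35, adjusted p = 0.058). The groups overlapped in both lines.

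MUC15, a membrane mucin whose gene lies within an intron of ANO3 on the other strand, had the greatest changes of the 9 genes in DU-145 cells. R16, over its promoter (at −687 bp from the start), held 1.37, 1.43 and 1.57 CPM with vehicle and 0.345, 0.0959 and 0.447 CPM with DOX. It fell by 2.35 on the log2 scale (SE 0.48, adjusted p = 8.19e-05), and all DOX libraries were under the lowest vehicle library. R17, at −7187 bp, held 0.444, 0.261 and 0.152 CPM with vehicle and 2.22, 1.44 and 1.74 CPM with DOX. It rose by 2.64 (SE 0.446, adjusted p = 5.47e-06), again without overlap. The neighboring regions R16 and R17 thus moved in opposite directions within the same libraries.

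Further upstream of MUC15, R19 (chr11:26583601-26584000) held 3.26, 4.88 and 3.75 CPM with vehicle and 1.49, 1.09 and 1.07 CPM with DOX. It fell by 1.73 (SE 0.273, adjusted p = 1.79e-06) with no overlap of the groups. R18, between R17 and R19, held 8.0, 6.65 and 5.09 CPM with vehicle and 5.60, 3.85 and 5.44 CPM with DOX, and these overlapped (log2 −0.43, adjusted p = 0.0736). Summed over 1 kb on each side of its start, the MUC15 promoter, which is covered by R16 alone, fell by 2.36 (SE 0.45, adjusted p = 2.35e-05). It was the other DU-145 mucin promoter with bins beside MUC1, and both were called lower. A MUC15 promoter peak was listed in 3 of 3 DU-145 vehicle libraries, with a fold enrichment of 5.70 to 7.73, and in 0 of 3 DOX libraries. Regions entered the table only with a peak in at least 3 libraries of either treatment, and R16 did so through its vehicle libraries. Its fall and this peak count are therefore not independent of that selection. Which libraries admitted R17 was not examined. The MUC15 window of BT-549 cells held no bin. With vehicle, R17 was thinly covered, at percentile 3.67 of all DU-145 regions in coverage per bin, while R16, R18 and R19 stood at percentiles 47.9, 71.7 and 73.1.

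MUC16, a very large membrane mucin that carries the ovarian tumor antigen, had 5 regions in DU-145 cells. R24 (chr19:9017901-9019100), at −7960 bp from the start of the longest MUC16 transcript of GENCODE and near the pseudogene BOLA3P2, held 9.30, 12.8 and 8.35 CPM with vehicle and 21.0, 18.6 and 16.0 CPM with DOX. It rose by 0.84 (SE 0.151, adjusted p = 1.42e-05), with all DOX libraries above all vehicle libraries. R23, at the start of that transcript, did not follow and held 8.90, 13 and 16.4 CPM with vehicle and 11.6, 12.2 and 14.1 CPM with DOX (log2 −0.01, 95% interval −0.33 to 0.31, adjusted p = 0.965). R21, in a coding exon, held 1.07, 0.895 and 0.81 CPM with vehicle and 2.46, 1.76 and 1.67 CPM with DOX. It rose by 1.06 (SE 0.334, adjusted p = 0.00713), but not with DESeq2 or loess offsets, where adjusted p reached 0.425.

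The highest coverage per bin in any mucin window belonged to a neighbor of MUC16, since R20 at the start of MBD3L1 lay above 99.5% of all DU-145 regions. It held 113, 111 and 120 CPM with vehicle and 110, 102 and 97.0 CPM with DOX (log2 −0.15, adjusted p = 0.0719). The same place, R15, was the only region of the MUC16 window in BT-549 cells. There it held 74.1, 77.1 and 67 CPM with vehicle and 80.7, 108 and 82.4 CPM with DOX (log2 0.31, adjusted p = 0.053). In both lines the DOX and vehicle libraries of this region did not overlap, and neither change was called.

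MUC20, a membrane mucin that associates with the MET receptor, was the gene with the most bins past the study's cutoffs for differentially accessible regions (DARs), which require a 2-fold change with an adjusted p below 1e-05 (DU-145) or 0.01 (BT-549). In DU-145 cells R27 (chr3:195715601-195717200), in an intron of MUC20-OT1 and at −4634 bp from a MUC20 start, held 13.2, 15.3 and 20.3 CPM with vehicle and 30.5, 37.3 and 29.2 CPM with DOX. The lowest DOX library was above the highest vehicle library, and the region rose by 1.0 (SE 0.13, adjusted p = 4.39e-08), within 0.76 to 1.01 over the other settings. R26 in the same window held 1.03, 1.95 and 2.41 CPM with vehicle and 1.30, 1.16 and 1.41 CPM with DOX and was not called (log2 −0.49, adjusted p = 0.214). Of the 331 DU-145 mucin bins 9 were opening and 2 closing DARs, 7 of the opening ones in the MUC20 window, 1 in that of MUC4 and 1 in that of MUC15, which also held both closing ones. Over all bins 5.0% were opening and 1.59% closing DARs, 35452 and 11250 bins. These calls apply the study's cutoffs to edgeR fits scaled by library sums, whereas the study used DESeq2. They are not the study's own DARs, and over all bins of either line they outnumber those it reported.

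**Figure D3:**
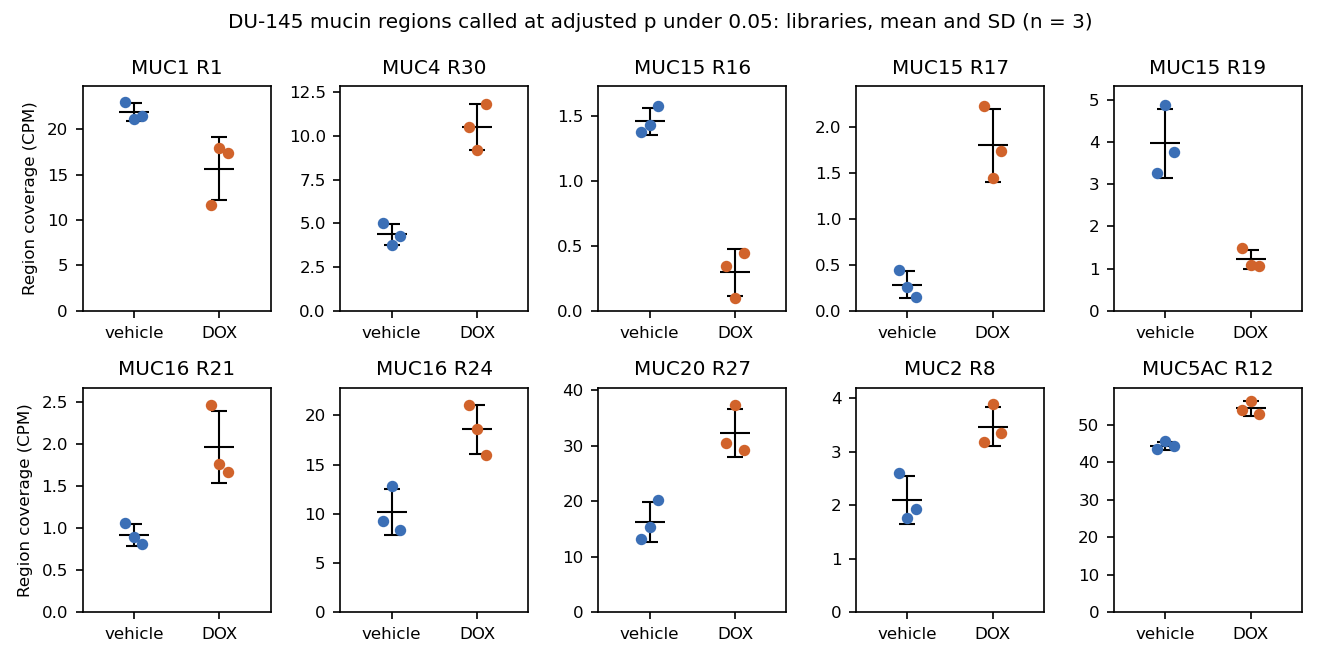
Coverage (y axis, CPM, from 0) of the 10 DU-145 mucin regions called at an adjusted p under 0.05, with vehicle in blue and DOX in orange, points for single libraries, and black marks for the mean and SD (n = 3). In all 10 panels the groups do not overlap, and MUC15 R16 and R17 show opposite directions.

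In BT-549 cells the MUC20 window held 5 regions, and the 4 furthest upstream, all along MUC20-OT1, were the only BT-549 mucin regions called higher. R20 held 0.559, 1.4 and 1.16 CPM with vehicle and 6.09, 2.06 and 6.68 CPM with DOX. It rose by 2.28 (SE 0.476, adjusted p = 0.000551) without overlap, and was the only called BT-549 mucin region whose call held under all 10 other settings and with each library left out. R18 (chr3:195701601-195702100) held 1.78, 2.29 and 3.56 CPM with vehicle and 12.3, 5.13 and 4.37 CPM with DOX. It rose by 1.51 (adjusted p = 0.00558), but not without vehicle replicate 1 or DOX replicate 1, when adjusted p reached 0.121.

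R19 (chr3:195704901-195705800) held 4.10, 4.62 and 5.60 CPM with vehicle and 12.4, 3.94 and 16.3 CPM with DOX. It was called (log2 1.23, adjusted p = 0.00762) although DOX replicate 2 lay under all vehicle libraries, and the call was lost without vehicle replicate 1 or DOX replicate 3 and with limma-trend. R17 (chr3:195700501-195700900), which runs past the window's edge, held 2.03, 1.88 and 0.740 CPM with vehicle and 2.76, 6.77 and 2.38 CPM with DOX (log2 1.25, adjusted p = 0.0482). Its call was lost without any 1 of the vehicle libraries or without DOX replicate 2, and with DESeq2, limma-trend or the replicate block. All 4 regions were thinly covered, at percentiles 0.194 to 3.42 of all BT-549 regions in vehicle coverage per bin. Which libraries admitted R17 to R20 to the table was not examined. Their rises, and the lack of overlap in R17, R18 and R20, may therefore not be independent of that selection.

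The summed coverage of R20 before scaling was 7.61, 16.3 and 10.6 with vehicle and 15.7, 5.15 and 21.8 with DOX, and that of R18 was 24.2, 26.8 and 32.5 with vehicle and 31.8, 12.8 and 14.3 with DOX. The unscaled groups overlapped in both regions, the DOX libraries had the smaller totals, and the part of this depth in the calls was not tested. A pseudogene copy of the gene, MUC20P1, lies at chr3:195614947-195620233. The share of 25-base stretches that occur more than once on chromosome 3 was 0% in R18 to R20, 38.3% in R17 and 25.4% in DU-145 R27, and the part of repeated sequence in these results was not tested.

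**Figure D4:**
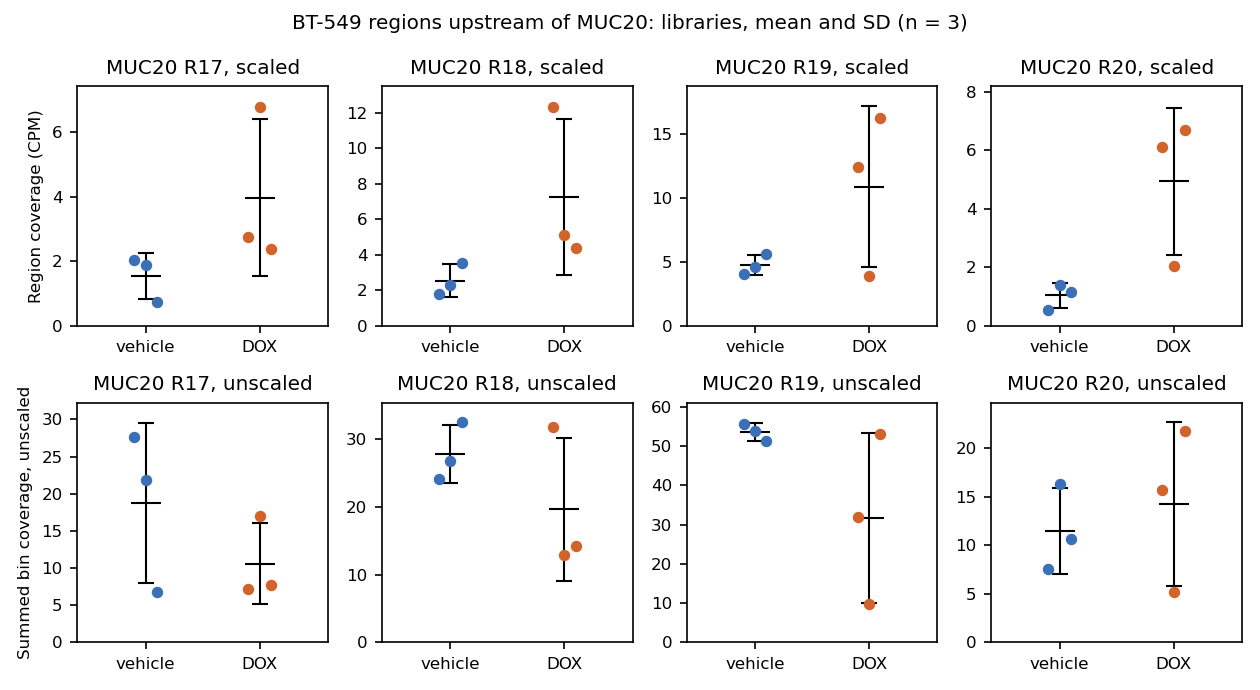
The 4 BT-549 regions called higher upstream of MUC20, as scaled coverage (top row, CPM) and as the summed bin coverage before scaling (bottom row), both from 0, with vehicle in blue, DOX in orange, points for single libraries, and black marks for the mean and SD (n = 3). Scaled DOX values lie above vehicle with an overlap in R19, whereas the unscaled values overlap in all 4 regions.

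The gel-forming mucins were fewer than the transmembrane ones, with fewer regions and fewer calls, and the shares called were not compared. MUC2 had 3 regions in DU-145 cells and none in BT-549 cells. DU-145 R8 (chr11:1060901-1061300), at −13825 bp from the MUC2 start and holding an AP-1 site, held 2.60, 1.77 and 1.92 CPM with vehicle and 3.18, 3.88 and 3.34 CPM with DOX. It rose by 0.76 (SE 0.253, adjusted p = 0.0111) without overlap of the groups. The call was lost without vehicle replicate 2 or DOX replicate 2 and with TMM factors, DESeq2 or loess offsets, and adjusted p then reached 0.276. R9 and R10 of the MUC2 window changed by −0.18 and −0.12 and were not called.

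MUC5AC had a region at −3803 bp from the start in both lines. In DU-145 cells R12 (chr11:1151501-1154600), with 3 AP-1 sites around its highest bin, held 43.4, 45.5 and 44.3 CPM with vehicle and 53.8, 56.4 and 52.7 CPM with DOX. These groups did not overlap, and the change of 0.29 (SE 0.0855, adjusted p = 0.00452) exceeded the median of all regions by 0.048 and was not called with TMM factors, DESeq2 or the highest bin. In BT-549 cells the region at the same place, R11, held 3.26, 3.07 and 3.02 CPM with vehicle and 1.52, 0.923 and 2.2 CPM with DOX. All DOX libraries were lower, but the change of −1.01 was not called (adjusted p = 0.115). The other MUC5AC regions of both lines changed by 0.08 to 0.33 and were not called.

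MUC5B had no called region in DU-145 cells. In BT-549 cells R13 (chr11:1259901-1260400), in a coding exon near the end of the gene, held 4.93, 3.75 and 2.49 CPM with vehicle and 1.0, 0.783 and 2.08 CPM with DOX. It fell by 1.4 (SE 0.5, adjusted p = 0.034) with no overlap, and the call was lost without vehicle replicate 1 or 2 or DOX replicate 1 or 2, and with DESeq2, loess offsets, the replicate block or the highest bin. R14, just past the end of MUC5B, held 10.7, 9.52 and 8.84 CPM with vehicle and 9.42, 13.9 and 12.7 CPM with DOX, and these overlapped (log2 0.31, adjusted p = 0.388).

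Over all 21 BT-549 mucin regions, 4 were called higher and 3 lower with DOX and 14 were not called, against 12.2% called higher and 18.0% called lower of all 46298 regions. Higher calls made up 40.4% of all calls with library sums and 51.7% with TMM factors. The median change of the mucin regions was −0.074. With DESeq2 0 of them were called lower, with GC correction 9, and without vehicle replicate 1 only 1 was called higher. The DOX and vehicle libraries did not overlap in 10 of the 21 regions and in 43.2% of all. Of the 276 mucin bins 4 were opening DARs, all in the MUC20 window, and 4 were closing DARs, 2 in the MUC1 window and 2 in that of MUC5B. Over all bins 2.07% were opening and 2.87% closing DARs.

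The lines were also compared with vehicle alone, which addresses how the mucin genes differed before induction of the hairpin. The MUC1 promoter, scaled over the bins of both tables, held 69.1, 70.3 and 64.8 CPM in DU-145 and 108, 125 and 109 CPM in BT-549 cells. It was lower in every DU-145 library (log2 −0.75, SE 0.087, adjusted p = 1.6e-10), within −0.93 to −0.74 over the other settings. Of 12607 promoters 40.4% were higher and 33.2% lower in DU-145 cells. MUC1 was the only member whose promoter had bins in both tables.

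Of the 13 shared regions 3 were called higher in DU-145 cells, 9 higher in BT-549 cells and 1 was not called, against 27.0% and 48.1% of all shared regions. Calls higher in DU-145 cells made up 35.9% of all calls with library sums and 49.0% with TMM factors, and the median shared region stood at −0.33 and −0.062. The MUC5AC region S8 had the greatest difference, with 24.1, 22.4 and 25 CPM in DU-145 and 3.99, 3.74 and 3.71 CPM in BT-549 cells (log2 2.63, SE 0.185, adjusted p = 1.02e-14). The median of the 61 shared regions within 1 Mb of S8 was −0.02. The MUC1 region S6 held 118, 130 and 117 CPM in DU-145 and 181, 209 and 178 CPM in BT-549 cells (log2 −0.63, SE 0.078, adjusted p = 7.34e-09), where the regions within 1 Mb had a median of −0.11.

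Among the other shared regions of the MUC1 window, S3 in TRIM46 (−1.48), S4 (−1.53), S5 in MUC1 (−1.16), S7 at THBS3 (−1.08) and S2 at KRTCAP2 (−0.22) were higher in BT-549 cells, and S1 (0.83) was higher in DU-145 cells. S2 turned to 0.046 with TMM factors, to 0.072 with DESeq2 and to 0.33 with the highest bin, and it was called with 1 of the 6 libraries left out in turn. S5 was not called with DESeq2 or loess offsets, nor S7 with the highest bin. S9 between MUC5AC and MUC5B (−0.61) and S10 in MUC5B (−0.70) were higher in BT-549 cells, but not with TMM factors, DESeq2, loess offsets or the highest bin. S11 at MBD3L1 in the MUC16 window was higher in DU-145 cells (0.78), where regions within 1 Mb had a median of 0.55. S12 at ITGB5 in the MUC13 window was higher in BT-549 cells (−0.66), where regions within 1 Mb had a median of −0.72. Copy number and accessibility cannot be told apart in these libraries.

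**Figure D5:**
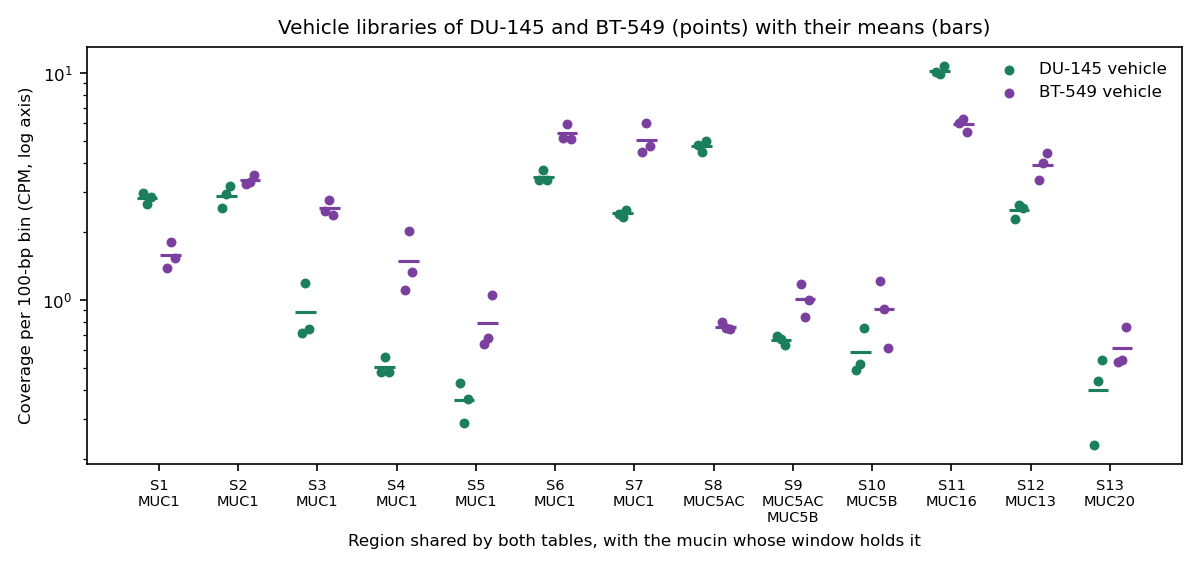
Coverage per 100-bp bin (y axis, CPM, log axis) of the 13 mucin regions shared by both tables (x axis, S1 to S13, with the mucin whose window holds each) in vehicle libraries of DU-145 (green) and BT-549 cells (purple). Points are libraries and bars are means of 3, and the lines stand furthest apart at the MUC5AC region S8, with 24.1, 22.4 and 25 CPM over its bins against 3.99, 3.74 and 3.71 CPM.

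The DOX effect differed between the lines in 5 of the 13 shared regions, 3 with a higher and 2 with a lower effect in DU-145 cells, against 38.6% of all shared regions. Higher effects in DU-145 cells made up 70.7% of all such calls with library sums and 52.3% with TMM factors. The MUC1 region S6 was not among them (difference −0.003, 95% interval −0.24 to 0.23, adjusted p = 0.987). S3, in a TRIM46 intron of the MUC1 window, held 8.61, 14.3 and 8.91 CPM with vehicle and 15, 16.2 and 13.2 CPM with DOX in DU-145 cells, and 29.6, 33.1 and 28.4 CPM with vehicle and 13.1, 20.4 and 16.2 CPM with DOX in BT-549 cells. The effect in DU-145 minus that in BT-549 cells was 1.32 (SE 0.281, adjusted p = 0.000203), and it was the only one of the 5 differences called in all 10 other settings and with each library left out.

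Accessible peaks of the mucin windows were also counted in the peak list of each library. DU-145 vehicle libraries held 29, 36 and 27 peaks in the 9 windows and DOX libraries 34, 37 and 31. In BT-549 cells these were 41, 37 and 23 with vehicle and 26, 19 and 19 with DOX, while the lists held 65204 to 93929 peaks with vehicle and 30450 to 39837 with DOX. Per 10000 peaks of the library, the mucin windows of DU-145 cells held 4.19 to 4.31 peaks with vehicle and 3.46 to 3.88 with DOX, and those of BT-549 cells 3.53 to 4.37 with vehicle and 4.77 to 6.73 with DOX. The BT-549 DOX libraries were the shallowest and had the shortest lists, and the part of depth in these shares was not tested.

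Genes that act on mucins were read at their promoters from lists of related mucins, enzymes of mucin O-glycosylation, mucus secretion genes and partners of transmembrane mucins. Their counts stand beside the 6.64% of all promoters called higher and 40.4% called lower in DU-145 cells, and the 18.3% and 5.95% in BT-549 cells. Of 16 other mucins 7 had promoter bins in DU-145 cells. Their median change was 0.14, against −0.19 for all promoters, and MUC22 rose while CD164, a sialomucin, and PODXL fell. MUC22 held 0.371, 0.595 and 0.324 CPM with vehicle and 1.84, 2.33 and 2.87 CPM with DOX, with no overlap (log2 2.38, SE 0.377, adjusted p = 1.02e-06). Its vehicle coverage was low, and whether its bins entered the table through the DOX libraries was not examined. CD164 changed by −0.47 in DU-145 cells (adjusted p = 7.9e-06), but was not called with loess offsets (adjusted p = 0.0505), and in BT-549 cells, where 3 of these genes had bins, it was the only one called and rose by 0.55 (adjusted p = 0.000193). PODXL was not called with TMM factors, DESeq2 or loess offsets.

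Of 22 O-glycosylation genes 20 had promoter bins in DU-145 cells, with 3 called higher, 5 lower and a median of −0.00015, against −0.19 for all promoters. GALNT3, which starts O-glycan chains, held 16.1, 14.7 and 17.9 CPM with vehicle and 39.6, 34.5 and 38.1 CPM with DOX (log2 1.21, SE 0.118, adjusted p = 1.29e-11). C1GALT1, the core 1 synthase, held 139, 139 and 143 CPM with vehicle and 91.7, 97.4 and 96.7 CPM with DOX (log2 −0.56, adjusted p = 1.56e-09), and its chaperone C1GALT1C1 also fell (−0.57). In BT-549 cells C1GALT1 held 168, 148 and 162 CPM with vehicle and 227, 204 and 204 CPM with DOX (log2 0.41, adjusted p = 0.000625). It kept its direction in both lines with TMM factors, DESeq2, loess offsets and GC correction. In BT-549 cells 16 of these genes had bins, and C1GALT1 and C1GALT1C1 were the only ones called, while with TMM factors C1GALT1 was higher and ST3GAL1 lower. With TMM factors 6 of the 20 DU-145 genes were higher and 3 lower.

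Of 16 mucus secretion genes 7 had promoter bins in DU-145 cells, where AGR2, a disulfide isomerase of mucin folding, rose (0.87, adjusted p = 0.0172) and ATOH1, a factor of secretory cell fate, fell (−0.97, adjusted p = 0.000427). AGR2 was not called with loess offsets (adjusted p = 0.0867) or GC correction (adjusted p = 0.267). In BT-549 cells 5 had bins and CREB3L1 fell (−0.59, adjusted p = 0.0306). All 16 partners of transmembrane mucins had bins in DU-145 cells, and LGALS3, which binds MUC1 glycans, and ESR1 rose, while 8 fell, among them EGFR (−0.84, adjusted p = 1.98e-08) and ADAM17 (−0.74, adjusted p = 2.49e-11), a sheddase. ESR1 was not called with loess offsets (adjusted p = 0.0689), and with TMM factors 3 partners rose and 4 fell. In BT-549 cells 14 had bins, with ADAM17 (0.66, adjusted p = 0.000128), RELA and JUN among those higher and ERBB3 lower (−0.53, adjusted p = 0.0151), and with TMM factors ADAM17 and RELA higher and ERBB3 lower.

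Among the 12607 genes with promoter bins in both tables, EMC9 (r = 0.985), ENTPD4 (r = 0.982) and MYC (r = 0.982) had the promoter coverage most like that of MUC1 over the 12 libraries, by Pearson's r of log2(CPM + 1). The first ranks lay close together, and the gene at rank 10, SLC25A37, still had r = 0.977. These libraries form 4 groups that share line, treatment and depth, so the correlations describe the order of group levels.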

How the data were processed

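ATAC-seq libraries of 50000 cells were aligned by the authors to GRCh38 with BWA, freed of duplicates with Picard and called for peaks per replicate with MACS2 2.2.7.1 at a q-value of 0.05. Regions found in at least 3 replicates were divided by the authors into 100-bp bins, for which they deposited estimated counts (the mean coverage by fragments within a bin, with no normalization). Deposited peak lists give the fold enrichment, a −log10 p-value and a −log10 q-value per peak.

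Bin values were summed over regions and over promoters (1 kb on each side of the canonical start), rounded, and tested with edgeR 4.0.16 (glmQLFit and glmQLFTest, robust, R 4.3.3), on features with a total of at least 10, scaled by library sums, with Benjamini-Hochberg adjustment. For shared features the sum over the bins of both tables was used. The standard error is the size of the log2 change divided by the square root of F. The design had assumed whole counts, which the bin values are not. Alternatives were TMM factors, DESeq2 1.42.0, loess offsets, GC correction, no filter, filterByExpr, limma-trend (limma 3.58.1, log2(CPM + 1)), the highest bin in place of the sum, a replicate block, and leaving out each library. Every region called is counted, and the 3 greatest rises and falls per line are given by library. The members and gene lists were chosen with earlier results of these data known. In simulated data of each line, only 66 or 67 regions per fold size were changed. Of 4-fold, 2-fold and 1.5-fold changes, 98.5%, 64.2% and 29.9% were recovered over the 79177 DU-145 regions. Over the 46298 BT-549 regions 81.8%, 44.8% and 23.9% were recovered, and false calls numbered 8 (DU-145) and 10 (BT-549). Far more regions were called in the real data, so these shares need not hold there. Replicates held equal values in at most 1.65% of bins and were counted separately. Some genes and 1 sequence are not reported here.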

Additional observations from a re-analysis of the deposited data

Results flagged for a closer look

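The DOX effect differed between DU-145 and BT-549 cells in 5 shared mucin regions, by the interaction of line and treatment over 32671 shared regions (edgeR, Benjamini-Hochberg adjusted), given here as the effect in DU-145 minus that in BT-549 cells on the log2 scale. At S3, in a TRIM46 intron of the MUC1 window, it was 1.32 (adjusted p = 0.000203). At the MUC5AC region S8 it was 1.31 (adjusted p = 0.0138), with 24.1, 22.4 and 25 CPM in vehicle and 31.6, 27.6 and 26.2 CPM in DOX libraries of DU-145 cells, against 3.99, 3.74 and 3.71 CPM and 1.80, 1.08 and 2.61 CPM in BT-549 cells. At S10, in MUC5B, it was 1.56 (adjusted p = 0.0245), with 2.47, 2.61 and 3.75 CPM and 2.53, 3.90 and 2.71 CPM in DU-145, against 6.02, 4.57 and 3.07 CPM and 1.18, 0.914 and 2.46 CPM in BT-549 cells. At S2, at the KRTCAP2 start, it was −0.49 (adjusted p = 0.0143), with 50.6, 58.4 and 63.4 CPM and 49.8, 66.7 and 53.5 CPM in DU-145, against 64.5, 66.1 and 71 CPM and 99.1, 88.7 and 92.0 CPM in BT-549 cells. At S13, in MUC20-OT1, it was −1.75 (adjusted p = 0.00531), with 1.37, 2.63 and 3.25 CPM and 1.92, 1.69 and 2.05 CPM in DU-145, against 3.19, 3.27 and 4.58 CPM and 11, 2.93 and 13.8 CPM in BT-549 cells. The BT-549 DOX libraries were shallower than the others, and the part of this depth was not tested. S8 was not called without BT-549 DOX replicate 2, S13 without BT-549 DOX replicate 3, S2 without DU-145 vehicle replicate 3 or DOX replicate 1, and S10 in 5 of the 12 fits with 1 library left out. S8 was also lost with DESeq2, loess offsets and the highest bin, where its difference reached down to 0.097. S2 was lost with loess offsets and GC correction, where it came as near 0 as −0.029. S10 was lost with TMM factors, DESeq2, loess offsets, the replicate block and the highest bin, and S13 with limma-trend.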

How the results depend on the processing

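The low depth of the BT-549 DOX libraries and the choice of scaling limit these results. With the MUC1 promoter left out, 484 of 578 repeats of the named mucin regions and promoters kept direction and side of the threshold. Another 88 kept the direction but missed the threshold and 6 reversed. These repeats include no filter, which kept the features of the main fit in every comparison, and filterByExpr, which did so for DU-145 regions. Such repeats could not change a call and raise the share kept. Repeats of the MUC1 promoter results, counted apart, held 9 reversals, 3 lost calls and 3 gained calls. The cause was not tested. In DU-145 cells the 7 higher regions became 4 with 5 kb on each side of the gene, 3 at the study's cutoffs, 4 with DESeq2 and 16 with GC correction, and were 6 to 8 with 1 library left out. The 3 lower ones became 1 with 5 kb, 1 at the study's cutoffs, 9 with TMM factors, 9 with DESeq2, 7 with loess offsets and 7 by the highest bin, and were 3 to 6 with 1 library left out, 6 without DOX replicate 2. In BT-549 cells the 4 higher regions became 0 with 5 kb and 2 with limma-trend, and were 1 to 4 with 1 library left out, 1 without vehicle replicate 1. The 3 lower ones became 0 at the study's cutoffs, 0 with DESeq2, 1 with loess offsets, 9 with GC correction and 0 by the highest bin, and were 0 to 2 with 1 library left out, 0 without vehicle replicate 2 and 1 without vehicle replicate 1 or DOX replicate 2. At the study's bin cutoffs replaced by an adjusted p under 0.05, opening and closing bins rose from 9 and 2 to 42 and 32 in DU-145 and from 4 and 4 to 9 and 15 in BT-549 cells.

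Between the lines with vehicle, the 9 regions higher in BT-549 cells became 5 with DESeq2 and 5 by the highest bin, and the 1 promoter became 2 with any start of the gene. S2 reversed to 0.046 (TMM), 0.072 (DESeq2) and 0.33 (highest bin), S5 to 0.020 and S10 to 0.17 with loess offsets, and S9 to 0.028 by the highest bin. For the difference in DOX effect, the 3 higher effects in DU-145 cells became 1 with DESeq2, 7 with GC correction and 1 by the highest bin, and were 1 to 3 with 1 library left out, 1 without BT-549 DOX replicate 2. The 2 lower ones became 4 with DESeq2, 1 with GC correction and 1 with limma-trend, and were 1 to 3 with 1 library left out, 1 without DU-145 vehicle replicate 3 or DOX replicate 1.

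The MUC1 promoter changed by −0.21 (TMM), −0.21 (DESeq2) and −0.17 (loess offsets) in DU-145 cells, where it lost its call and 1 of 2 lower mucin promoters remained, and by −0.31, −0.31 and −0.34 in BT-549 cells, where it gained one, 1 in place of 0. With any start of the gene, 1 BT-549 mucin promoter was lower in place of 0, and 1 showed a higher DOX effect in DU-145 cells in place of 0. The difference of the MUC1 promoter effect between lines, −0.02, stood at 0.12 (TMM), 0.13 (DESeq2), 0.21 (loess offsets) and 0.027 (GC correction), and between −0.10 and 0.015 with 1 library left out. This promoter interaction and the other scalings of the gene lists were chosen after seeing the data.

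Deviations of same-numbered vehicle and DOX libraries correlated at −0.035 to 0.069, so the numbers were not taken as pairs. With the replicate block, 5 DU-145 regions in place of 3 and 1 BT-549 region in place of 3 were lower, and with the replicate block and GC correction 16 DU-145 regions were higher in place of 7 and 6 BT-549 regions lower in place of 3.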
